A study of Cucumis melo with 12 samples.

Results

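The comparison described here set radicles of melon (*Cucumis melo*) grown from seeds treated with a high dose of *B. velezensis* FZB42 against radicles from seeds treated with a low dose. It covered every gene for which the authors listed a value at both doses, which were 250 of the 3256 genes on any of the 6 lists of the series. These genes were 85.9% of the low-dose radicle list (291 genes) and 8.05% of the high-dose radicle list (3106 genes). Melon seeds (var. Rochet Panal) had been surface sterilized and immersed in a bacterial suspension of log10 8 (high dose) or log10 7 (low dose) CFU per ml, or in water (mock), and radicles were taken after 5 days in the dark. RNA of 4 libraries, 2 of each dose, was sequenced among the 12 libraries of the series, and mock radicles, also with 2 libraries, served only to place the doses.

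Each group had 1 value per gene, in which the authors combined both libraries, so no spread between libraries was known and no test was run. The values are named FPKM, but the same small values, such as 1.096 in mock, recur across genes, and no gene lengths were available to check the unit. They were read as a relative signal of unstated scale, which gives no read depth behind a value. Levels and places among genes below therefore order listed values, not transcript abundance. Whether the lists of both doses were scaled together is not stated in the sources used here. A common factor between them would move every gene by the same amount. Both lists had been selected for a difference from mock, so the genes in both are not a sample of the radicle transcriptome. Whole radicles were profiled, in which fewer cells of a type and less RNA per cell cannot be told apart. Matching the 3256 identifiers to the RefSeq gene table of melon gave 0 matches, so the labelled tissue was not checked against marker genes, and gene names come from the study's own table of 16 selected genes.

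*B. velezensis* is a spore-forming bacterium of the root zone that secretes cyclic lipopeptides, and plant responses to such colonizers can involve oxylipins and reactive oxygen. Lipoxygenases add oxygen to polyunsaturated fatty acids, the entry step to jasmonic acid and other oxylipins, and plants hold several classes of them. Pentatricopeptide repeat (PPR) proteins bind RNA in mitochondria and plastids, where they act in editing, splicing and stability of transcripts. The proteasome degrades tagged proteins, and its beta subunits hold the cleaving sites. RPB7 is a subunit of RNA polymerase II, the enzyme that transcribes protein-coding genes.

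Most genes had close values at both doses. The difference is given as log2((high + 1)/(low + 1)), so that a negative value means a lower value at the high dose. Its median over the 250 genes was -0.19, with quartiles of -0.80 and 0.03, and the median gene stood at 87.6% of its low-dose value. The high-dose value was lower in 181 genes (72.4% of all 250 compared) and higher in 69 (27.6%). An absolute log2 under 0.25 was found in 108 genes and one of 0.25 to 0.5 in 50. Past an absolute log2 of 1, 51 genes were lower at the high dose (20.4% of the 250) and 3 were higher (1.2%). These shares are the background against which the subsets below are read, and no error could be attached to them. The split by direction depended on the scale: it was 125 higher and 124 lower under median ratio scaling, which sets the median to 0 by construction, and 130 and 113 after quantile normalization, where the median was 0.03. With high-dose values multiplied by 1.1 it was 108 higher and 142 lower, and multiplied by 0.9 it was 42 and 208. Both shifts were chosen after the values were seen.

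**Figure D1:**
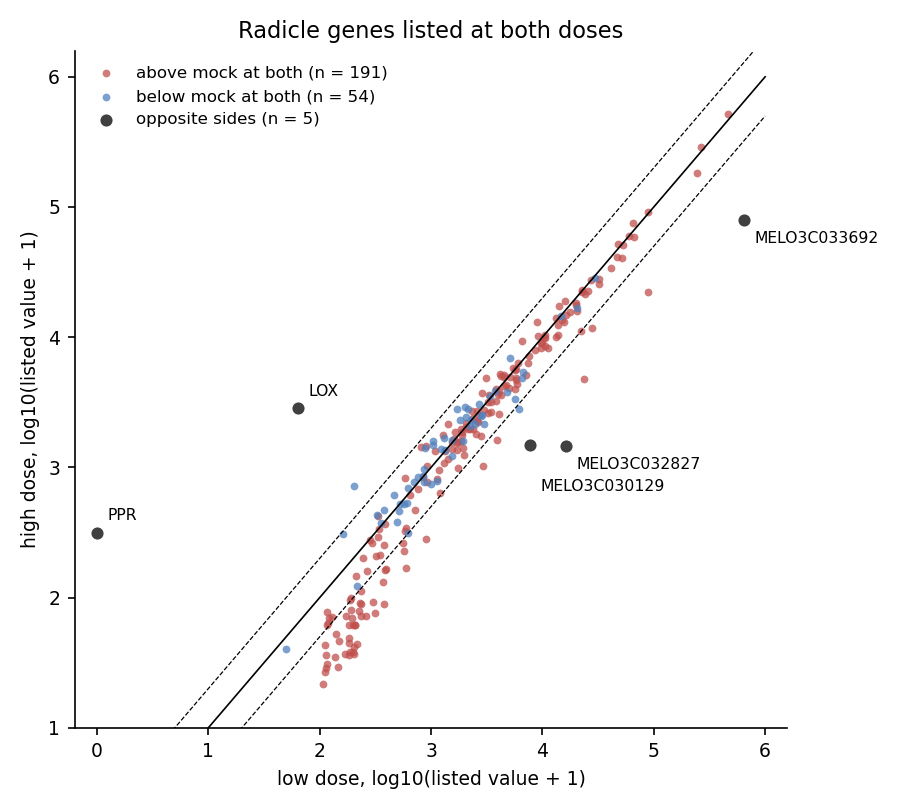
Values of the 250 radicle genes listed at both doses, low dose on the horizontal and high dose on the vertical axis, both as log10(listed value + 1), with 1 value per group and no error bar. The solid line marks equal values and the dashed lines a 2-fold difference on this scale. Red genes lie above mock at both doses (191), blue genes below (54) and black genes on opposite sides (5). Most genes lie close to the solid line, whereas LOX and PPR lie far above it and 3 black genes below.

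In 5 genes the doses lay on opposite sides of mock (2% of the 250). The lipoxygenase LOX (MELO3C014630) had values of 62.4 in low-dose, 519.7 in mock and 2859 in high-dose radicles. The latter was 45.8 times as high as the former (a log2 of 5.49), the largest difference among genes above 0 at both doses. By value, LOX stood at place 248 of 250 at the low dose and at place 91 at the high dose, the longest move of any gene. PPR (MELO3C008512) had values of 0 in low-dose, 82.7 in mock and 313.0 in high-dose radicles. It was the only gene of the 250 listed at 0 at either dose, so no ratio between its doses is given. It moved from place 250 to place 188.

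The other 3 genes had the reverse order, with the low dose above mock and the high dose below it. MELO3C032827 had values of 16223 in low-dose, 3931 in mock and 1450 in high-dose radicles. The high dose thus reached 8.94% of the low dose, and the log2 of -3.48 was the most negative of all 250 genes. MELO3C033692 had values of 647203, 185344 and 79639 in the same order, so that the high dose reached 12.3% of the low dose. For MELO3C030129 they were 7741, 2855 and 1481, or 19.1% (a log2 of -2.39). MELO3C032827 moved from place 32 at the low dose to place 139 at the high dose and MELO3C030129 from place 53 to place 137, whereas MELO3C033692, the gene with the highest low-dose value, was still at place 5. No function is annotated for these genes in the sources used here.

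**Figure D2:**
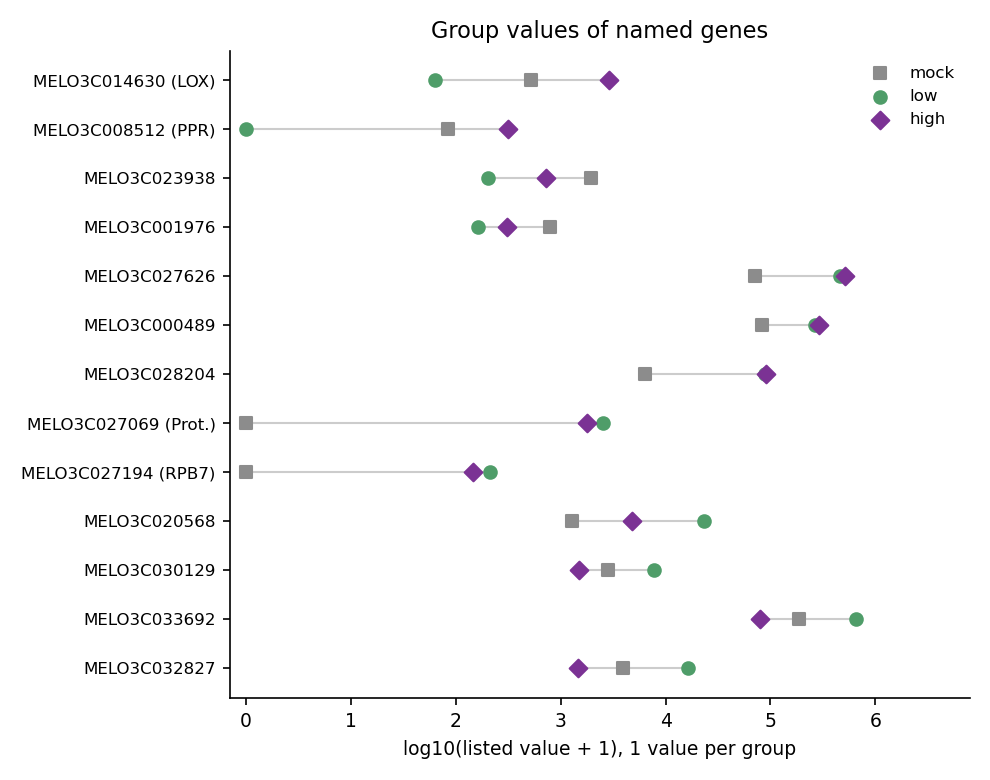
Listed values of 13 named genes in mock (grey squares), low-dose (green circles) and high-dose (purple diamonds) radicles, as log10(listed value + 1), with 1 value per group and no error bar. In LOX and PPR mock lies between a lower low dose and a higher high dose, and in MELO3C030129, MELO3C033692 and MELO3C032827 the order is reversed. In MELO3C027626, MELO3C000489 and MELO3C028204, as listed, the marks of both doses nearly coincide.

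MELO3C033692 also set most of the gap between summed values. The 250 genes summed to 3250335 in low-dose and 2482204 in high-dose radicles, or 76.4% of the low dose. This gene alone made up 73.9% of the gap, and without it the high-dose sum was 92.3% of the low-dose sum. The other 4 genes with the highest means had smaller differences as listed. MELO3C027626 was listed at 465340 in low-dose and 517579 in high-dose radicles (a log2 of 0.15), and MELO3C000489 at 263553 and 290906 (0.14). MELO3C029635 was listed at 244186 and 181023 (-0.43), and MELO3C028204 at 88582 and 90953 (0.04). Quantile normalization took them to 0.62, 0.77, 0.41 and 1.03 in the same order, so that MELO3C029635 changed sign. Together the 5 genes held 52.6% of the low-dose sum and 46.7% of the high-dose sum.

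The dose difference varied with level. Among the 16 genes with a mean of both doses under 100, all 16 were lower at the high dose, with a median log2 of -1.52. For 15 of them, above mock at both doses, low-dose values began at 105.9, so a mean under 100 fixed this direction in advance. Of the 79 genes from 100 to 1000, 64 were lower, 32 of them past a log2 of 1, and the median was -0.75. From 1000 to 10000 the split was 67 lower and 44 higher over 111 genes, with a median of -0.09, and at 10000 and more it was 34 lower and 10 higher over 44 genes, with a median of -0.15. Past a log2 of 1 at the high dose, 5 genes from 1000 to 10000 and 4 at 10000 and more were lower. Quantile normalization took the median under 100 to 0.14, a change of sign, and that from 100 to 1000 to -0.11. The small medians of the upper ranges also changed sign with scaling. From 1000 to 10000 the median was 0.10 under median ratio scaling and 0.03 after quantile normalization, and at 10000 and more it was 0.04 and 0.15.

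**Figure D3:**
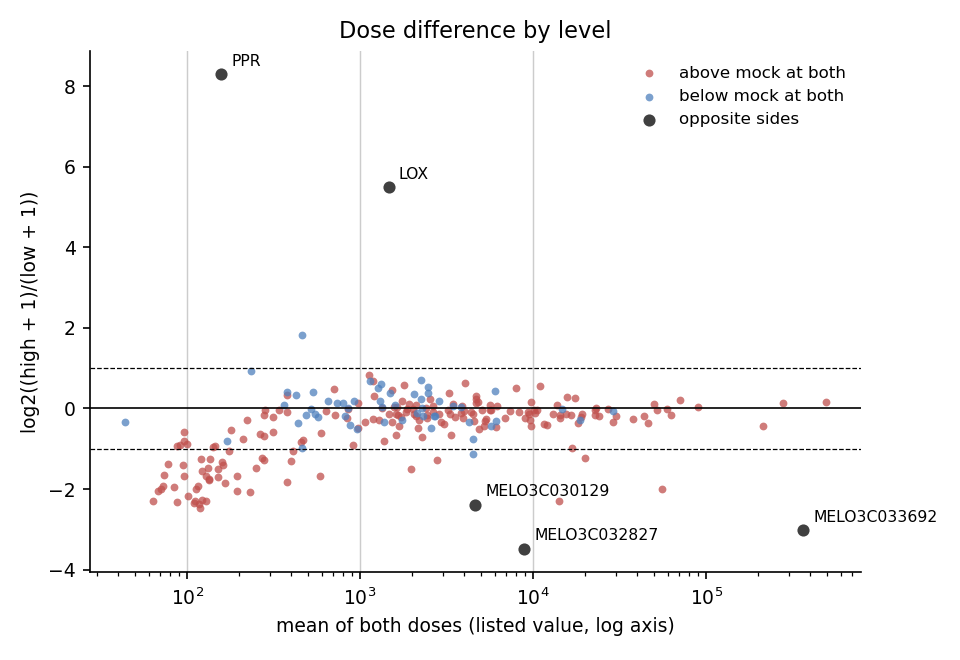
Difference between doses, log2((high + 1)/(low + 1)), against the mean of both doses on a log axis, for 250 genes with 1 value per group. Grey vertical lines mark means of 100, 1000 and 10000, dashed lines a log2 of 1 and -1, and colours the side of mock as in the plot of both doses. Genes with a mean under 100 lie between -2.33 and -0.32, whereas most genes above 1000 lie within 1 of zero. The height of PPR, listed at 0 at the low dose, is set by the added 1.

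**Figure D4:**
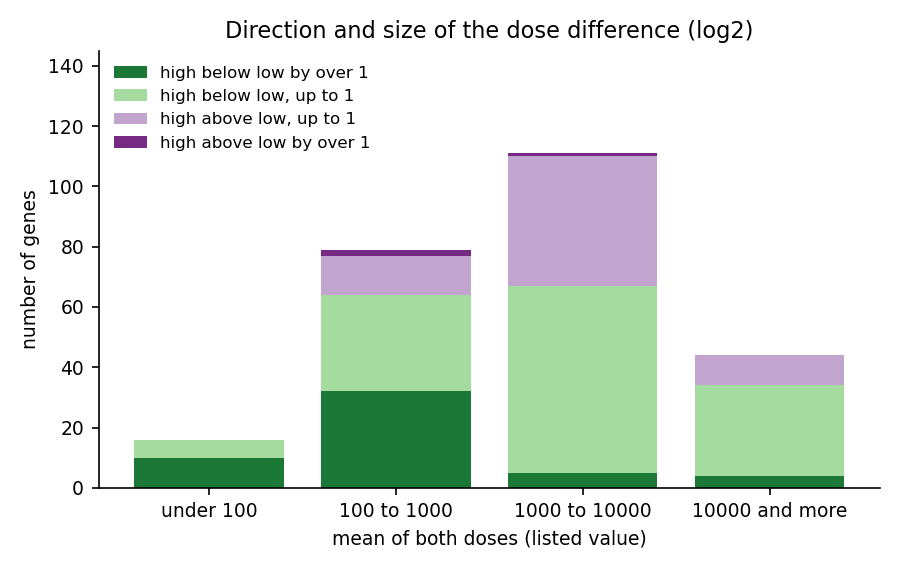
Number of genes (vertical axis) by mean of both doses (horizontal axis, listed value), divided by direction and size of the log2 difference. Dark green marks genes lower at the high dose by over 1, which are 10 of 16 under 100, 32 of 79 from 100 to 1000, 5 of 111 from 1000 to 10000 and 4 of 44 at 10000 and more.

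The differences also varied with the value in mock, and many of the genes with low means were near 0 there. Over the 49 genes with a mock value under 10, the median high dose reached 33.6% of the low dose. Of these genes 35 were lower past a log2 of 1, out of the 51 such genes at all levels. Genes listed at 0 in mock (20) had low-dose values from 105.9 to 2816, with a median of 142.3, and high-dose values from 20.9 to 1799, with a median of 46.7. All 20 were lower at the high dose, with a median log2 of -1.60. The 29 genes above 0 and under 10 in mock had a median of -1.51, with 28 lower. From 10 to 100 in mock, the median was -0.58 over 25 genes. Over the 176 genes with a mock value of at least 100, a bound chosen after the values were seen, it was -0.10, with 112 lower and 64 higher, and 146 genes lay within 0.5 of zero. In that set 9 genes were lower past 1 and 2 higher.

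The lists themselves differed at the low end. For genes at 0 in mock, the whole low-dose list began at a value of 78.3 and the whole high-dose list at 10.1. Of the 201 such genes on the whole high-dose list, 196 had a value under 100, compared with 1 of 24 on the whole low-dose list. Among genes on one list only, it was 180 of 181 for the high dose and 1 of 4 for the low dose. Apart from the direction fixed under a mean of 100, the part of this selection in the differences at low level was not tested.

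**Figure D5:**
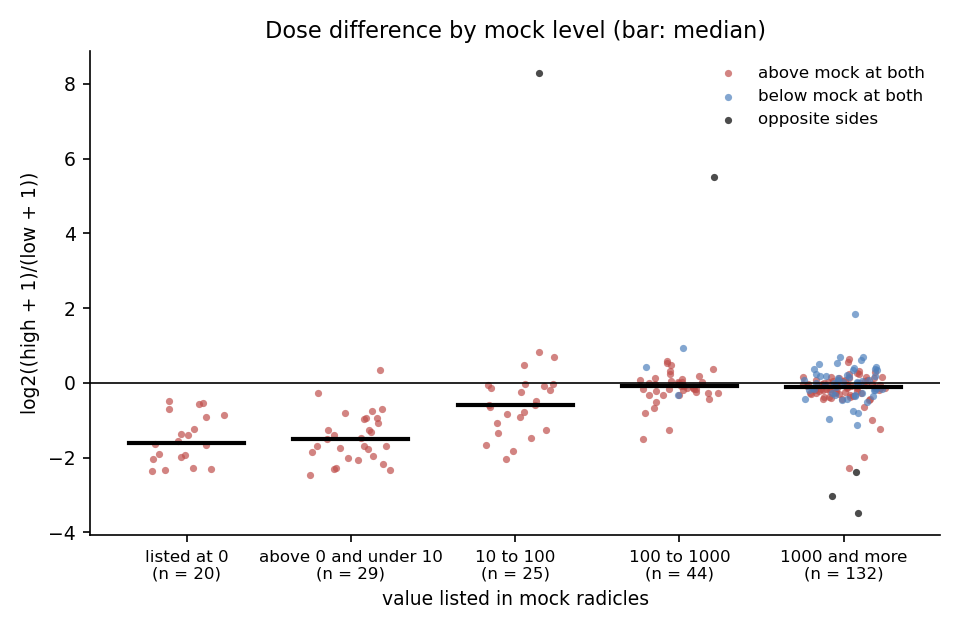
Difference between doses, log2((high + 1)/(low + 1)), by the value listed in mock radicles, 1 point per gene with 1 value per group. Points are spread sideways only for visibility, bars are medians and colours give the side of mock. The medians are -1.60, -1.51, -0.58, -0.10 and -0.10 from left to right.

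Of the genes listed at 0 in mock, 2 belong to the selected table. The gene of the proteasome subunit beta (MELO3C027069) had 2540 in low-dose and 1799 in high-dose radicles, or 70.8% (a log2 of -0.50). RPB7 of RNA polymerase II (MELO3C027194) had 210.8 and 145.6, or 69.1% (-0.53). As listed, both genes were lower at the high dose and nearer to equal doses than the median of the 20 genes. After quantile normalization RPB7 changed sign, to 0.38, whereas the proteasome gene stood at -0.37. Only MELO3C027069 and MELO3C001711 of the 20 exceeded 1000 at both doses. MELO3C001711 had 2816 and 1730 (-0.70).

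The most negative differences fell into genes of high level and genes near 0 in mock. Besides the 3 genes on opposite sides of mock, MELO3C020568 had a high value, with 23426 in low-dose, 4797 in high-dose and 1281 in mock radicles (a log2 of -2.29). The other 6 of the 10 most negative genes had mock values of at most 1.1. MELO3C025445 was listed at 202.0 in low-dose and 35.7 in high-dose radicles (-2.47), and MELO3C033028 at 196.7 and 37.5 (-2.36). MELO3C029010 stood at 183.3 and 35.3, MELO3C028367 at 146.1 and 28.2, MELO3C000069 at 186.0 and 36.9 and MELO3C017239 at 215.4 and 43.1. In these 6 genes the low-dose value was 5.00 to 5.66 times the high-dose value. All 6 had high-dose values of at most 43.1, near the lowest high-dose value of the 250 genes, 20.9. Quantile normalization, which aligns the low ends of both columns, left them between -0.50 and -0.87.

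On the side higher at the high dose, MELO3C023938 was the only gene past a log2 of 1 besides LOX and PPR. It was listed at 202.4 in low-dose and 723.2 in high-dose radicles, 3.57 times as high, both below its mock value of 1933. MELO3C001976 was listed at 161.2 and 306.1 (a log2 of 0.92, mock 797.8), and MELO3C018883 at 1720 and 2786 (0.70, mock 4767). MELO3C008491 (883.7 and 1413) and MELO3C015306 (1041 and 1598) were also below mock at both doses. In these 5 genes the low dose lay further from mock than the high dose. Apart from LOX, the remaining 4 of the 10 largest lay above mock at both doses, with the high dose further from it. MELO3C004850 was listed at 815.8 and 1443 (0.82, mock 83.1) and MELO3C008375 at 901.7 and 1458 (0.69, mock 60.6). MELO3C014224 stood at 3142 and 4889, and MELO3C028157 at 1433 and 2161. The 10 largest differences above 0 at both doses thus consisted of LOX and these 9 genes.

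The order of both doses differed between genes above and below mock, which share the mock values. Above mock at both doses, 152 of 191 genes had the order mock, high dose, low dose, and 39 the order mock, low dose, high dose. Their median log2 between the doses was -0.25, and 47 genes were lower at the high dose past 1, compared with 0 higher. Below mock, 28 of 54 genes had the order low dose, high dose, mock and 26 the order high dose, low dose, mock, with a median of 0.01. In that set 1 gene was higher past 1 (MELO3C023938) and 1 lower. Above mock, the median was -0.59 over 24 genes with a mock value from 10 to 100, -0.12 over 40 genes from 100 to 1000 and -0.13 over 78 genes at 1000 and more. Below mock the 51 genes at 1000 and more had a median of 0.01, with 26 higher and 25 lower. Whether the sets above and below mock differ was not tested.

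Some genes were alike at both doses in these pooled values. Among genes with a mean of at least 1000, the smallest differences were those of MELO3C033684 (59560 for the low and 59503 for the high dose) and MELO3C027745 (27291 and 27264). MELO3C005778 was listed at 2394 and 2408, MELO3C032493 at 2041 and 2028, and MELO3C003132 at 14794 and 14663. The widest of these 5 differences was that of MELO3C003132, whose high dose reached 99.1% of the low dose. Of these, 4 were above mock and MELO3C003132, with 32865 in mock, was below it. Without a spread between libraries the equality has no interval.

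By value, 100 of the 250 genes moved by 10 or more places between the doses, 32 by 20 or more and 9 by 40 or more. Next to LOX, PPR, MELO3C032827 and MELO3C030129, the longest moves down at the high dose were those of MELO3C028197 (place 97 to 154, 2903 to 1018), MELO3C020568 (place 22 to 69) and MELO3C027976 (place 84 to 129, 3920 to 1620). The longest moves up were those of MELO3C023938 (place 216 to 168), MELO3C001976 (232 to 190) and MELO3C018883 (131 to 94). Spearman's correlation between both doses was 0.965 across all 250 genes. Within levels, where the range of values is narrower by construction, it was 0.818 across the 111 genes with a mean of 1000 to 10000. It was 0.876 across the 44 genes at 10000 and more, 0.821 across the 79 genes from 100 to 1000 and 0.347 across the 16 genes under 100. These are correlations across genes of the same libraries, which are not independent replicates.

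For genes on one list only, the doses could not be compared, since a gene missing from a list was not set to 0. The high-dose list alone held 2856 genes with a median value of 1078, and the low-dose list alone 41 genes with a median of 1252. Of the selected table, 4 genes were on both radicle lists (LOX, PPR, the proteasome subunit and RPB7), 4 on the high-dose list alone, 3 on the low-dose list alone and 5 on neither. On the high-dose list alone, the peroxidase (MELO3C002457), an enzyme using hydrogen peroxide, was listed at 23115, below its mock value of 47778. RBOH (MELO3C020689), a respiratory burst oxidase that produces superoxide, stood at 15.5, the plant transposase (MELO3C028271) at 48.9 and MELO3C031213, a retrotransposon Gag/pol gene, at 53.9. These last 3 genes were at 0 in mock and had values under 78.3, the lowest low-dose value of any such gene. On the low-dose list alone, the RNA polymerase subunit beta (MELO3C011383) was listed at 289896, above its mock value of 38367. The myb-type gene HTH (MELO3C014217), at 8790, was also above mock (3525). NSLTP (MELO3C009108), a lipid-transfer protein, was listed at 3364, below its mock value of 7824. The largest value of the low-dose list alone was that of MELO3C030931, at 294865, with 59610 in mock.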

How the data were processed

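In the study's methods, RNA of biological duplicates was sequenced as paired-end reads and aligned to the melon cv. DHL92 v4 genome with the provider's pipelines, while Bowtie2 and SAMtools are named in the processing notes of the submitters. The authors deposited 1 list of selected genes per group, with 1 value per gene combined from 2 libraries, which was used as a signal of unstated scale. Groups were mapped from the sample titles.

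Values under 1e-10 were taken as 0. A pseudocount of 1 was added before the log2 ratio of high to low dose was taken, over genes on both radicle lists and without a minimum. No test was run. Genes were named by fixed rules: the selected gene table, opposite sides of mock, a value of 0 at a dose, the 10 largest differences in each direction among genes above 0 at both doses, the 5 highest means, the 5 smallest differences at a mean of at least 1000, and the 5 longest moves in rank each way. MELO3C001711 and MELO3C030931 were named after their values were seen. Lists by gene description could not be formed without annotation. The genes and lists were chosen with earlier results of these data known, and the split by mock value was chosen after the values were seen.

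Alternatives were pseudocounts of 0.1 and 10, median ratio scaling, quantile normalization, values under 0.1 as 0, a value of at least 100 at one dose, and log2 thresholds of 0.5 and 2. Counting was tested on simulated data. Scripts ran in Python 3.11.15 with matplotlib 3.10.9, scipy 1.17.1, pandas 2.3.3 and numpy 2.4.6.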

Additional observations from a re-analysis of the deposited data

How the results depend on the processing

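No paired analysis was possible because both libraries of a group share 1 value, and leaving out each replicate was not run for that reason. A count or a ratio was held to be kept where it moved by less than 1.5 times. Under pseudocounts of 0.1 and 10, values under 0.1 as 0, the value of at least 100 at one dose, and leaving out XLOC loci, no count and no median moved beyond these bounds. Genes higher at the high dose numbered 130 under quantile normalization and 125 under median ratio scaling, and 108 and 42 with high-dose values multiplied by 1.1 and 0.9. Lower genes numbered 113 under quantile normalization and 112 with a mock value of at least 100. Past a log2 of 1, higher genes numbered 6 under quantile normalization and 5 under median ratio scaling, and lower genes 12 under quantile normalization and 9 with a mock value of at least 100. A threshold of 0.5 gave 15 higher and 77 lower, and one of 2 gave 17 lower. The median under a mean of 100 became 0.14 under quantile normalization and -0.32 with a mock value of at least 100, and that from 100 to 1000 became -0.11 and -0.00020. For the quantile and scaling values the cause was not tested, while the last bound removes genes. A pseudocount cannot change a direction or a side of mock, so those counts were fixed under it. Scaling by 1.1 and 0.9, the mock bound and leaving out XLOC loci were chosen after the data were seen. What depth limits was not computed, since the lists hold no read counts.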

Other observations

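Loci with an XLOC name in place of a melon gene identifier made up 17 of the 250 genes. In 14 of them (82.4%) the high-dose value was the lower one, compared with 71.7% of the 233 genes with a melon identifier. The median log2 was -0.43, compared with -0.18 over those 233 genes. XLOC_005985 had the highest value among them, at 22361 in low-dose and 11239 in high-dose radicles (4464 in mock), and XLOC_029860 the most negative difference, at 112.5 and 35.4 (0 in mock). XLOC_041198, at 1281 and 1769, was the highest in the other direction.

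Of the 250 genes, 16 were also on a seed list. Of these, 13 (81.25%) had a lower value in high-dose than in low-dose radicles, compared with 72.4% of all 250. Their median log2 was -0.21, compared with -0.19 over all 250. MELO3C027621 was listed at 88660 in low-dose and 22293 in high-dose radicles (-1.99), and MELO3C029348, the largest difference in the other direction, at 8865 and 13042 (0.56). These genes were chosen after their values were seen.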
